A study of Homo sapiens with 30 samples.

Results

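The LINC-named RNAs are long intergenic noncoding RNAs that carry a systematic symbol, LINC and a number, in place of a name for a function. RNA was sequenced in bulk from LNCaP cells after 24 h with vehicle or with R1881. Of 37843 rows in the count table, 1227 had such a symbol, and 184 of these had a mean of at least 1 CPM (the count over the library total, times 1000000) in at least 1 of 5 dose groups. The groups were vehicle and 0.03, 0.06, 0.1 and 10 nM R1881, with 3 libraries each, numbered 2, 3 and 4. All cells had been plated in medium with charcoal-stripped serum, which removes most steroid, before the 24 h with R1881 or vehicle began. LNCaP is an epithelial line grown from prostate cancer that had spread to a lymph node, and the results are those of 1 line. R1881 is a synthetic androgen that cells do not convert to oestrogen. The series asks what separates the programs of genes that low and high androgen doses switch on or off. The labels do not say whether the 3 libraries of a group came from separate cultures, so the p-values measure the spread between these libraries, which may be technical.

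Androgens act through a steroid receptor, a transcription factor that moves to the nucleus with its ligand and raises some genes and lowers others. Long noncoding RNAs are transcribed and spliced much like messenger RNAs but hold no long reading frame. Some act on chromatin or on proteins, others mark the act of transcription beside a coding gene, and for most LINC symbols no function is established. The libraries were made with a kit for polyadenylated RNA, so noncoding transcripts without a poly(A) tail were not captured.

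The level in each group chose the members, so that a member is found above 1 CPM is not a result. Of the 184, 133 had a mean of at least 1 CPM in all 5 groups. Just inside the threshold were LINC00920, LINC00449 and LINC00836, with highest group means of 1.02, 1.03 and 1.08 CPM. Just outside were LINC00885, LINC03077 and LINC00882, with highest group means of 0.993, 0.965 and 0.960 CPM. The number of members at or above 1 CPM was 175 in vehicle, 173 at 0.03 nM, 163 at 0.06 nM, 157 at 0.1 nM and 140 at 10 nM. All 184 passed the filter on low counts. The 165 members whose mean over all 15 libraries was at least 1 CPM meet the rule by that mean alone, whichever group is higher, and the tests below are counted over them. The other 19 reached 1 CPM only through some groups, and their values are given without a test.

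Total counts were 30666460 to 61199483 per library, of which the members held 0.121% to 0.172%. The androgen-induced check genes KLK3, KLK2, FKBP5, TMPRSS2 and SLC45A3 were higher in all 5 comparisons. Of the luminal prostate markers, FOXA1 was at 432 to 554 CPM and HOXB13 at 409 to 584 CPM, and ERG, a marker of the other line in the series, was at 0.0185 to 0.157 CPM. TP63 (basal), CHGA (neuroendocrine), DCN (fibroblast), PTPRC (leukocyte) and PECAM1 (endothelial) were at or near 0. Summed over their lists, the neuroendocrine markers (5 of 5 in the table, mostly ENO2) ran from 20.1 to 22.9 CPM at 10 nM, against 52.7 to 58.0 CPM in vehicle. The fibroblast markers (4 of 5, mostly COL1A1) ran from 16.4 to 20.3 CPM at 10 nM, against 29.1 to 39.9 CPM in vehicle. The leukocyte and endothelial markers (7 of 8, mostly VWF) ran from 5.26 to 8.10 CPM at 10 nM, against 16.7 to 20.2 CPM in vehicle. The basal epithelial markers (3 of 4, mostly KRT14) ran from 0.290 to 0.537 CPM at 10 nM, against 0.0231 to 0.0444 CPM in vehicle. The part of these lists in the results on the members was not tested. Mitochondrial RNA took 9.31% to 10.7% of counts in the 5 libraries numbered 3 and 6.14% to 7.69% in the other 10.

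The set was led by a few abundant RNAs. The 3 highest members held 20.9% of the summed member CPM and the 20 highest held 58.5%, while 86 of the 165 had a mean under 3 CPM. CPM below are counts over library totals corrected by TMM factors, a scaling that brings most genes to a common level. LINC00665, which is reported to encode a small peptide in breast cancer cells, was the most abundant. Its mean was 118 ± 3.74 CPM in vehicle, 121 ± 4.32 at 0.03 nM, 128 ± 2.01 at 0.06 nM, 127 ± 1.54 at 0.1 nM and 120 ± 1.18 at 10 nM (SD, n = 3 each). LINC00963, first described in prostate cancer cells on their way to androgen independence, was next, with 115, 109 and 108 CPM at 10 nM, against 102, 110 and 88.9 CPM in vehicle. LINC01278 on chromosome X had 98.9 ± 5.55 CPM at 10 nM and 99.3 ± 5.05 CPM in vehicle. Per kilobase of exon the order was another: LINC02967 led at 37.9 CPM per kb over all libraries, and LINC00665 had 17.1 CPM per kb.

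Of the 8 most abundant members, 3 fell at 10 nM against vehicle and 5 did not pass the test. The edgeR quasi-likelihood test with Benjamini-Hochberg adjustment over all 18403 genes tested was used for every call. LINC00205 had 33.2, 32.4 and 32.8 CPM at 10 nM, against 65.6, 62.9 and 67.7 CPM in vehicle. Its group means lay lower at each step of dose, and the 10 nM and vehicle libraries were far apart. The log2 fold change was −1.0 ± 0.0448 (SE, adjusted p = 2.09e-12). LINC00938 had 35.5 ± 3.06 CPM at 10 nM and 55.6 ± 2.92 CPM in vehicle (log2 fold change −0.64 ± 0.0687, adjusted p = 2.77e-07). LINC02967 had 39.2 ± 1.31 CPM at 10 nM and 50.3 ± 0.886 CPM in vehicle (log2 fold change −0.36 ± 0.0530, adjusted p = 1.39e-05). LINC00665 differed by a log2 of 0.02 ± 0.0431 (adjusted p = 0.666), LINC01278 by −0.01 ± 0.0674 (0.956), LINC00963 by 0.14 ± 0.0768 (0.128), LINC00667 by −0.04 ± 0.0478 (0.487) and LINC03072 by −0.09 ± 0.0499 (0.122). These values depend on the processing. By library totals without TMM factors the median of all genes moves by −0.21 at 10 nM against vehicle, and LINC00665, LINC01278, LINC00667 and LINC03072 were then called lower, at −0.19, −0.21, −0.25 and −0.30, while LINC00963 was at −0.07 and not called. LINC00963 was called higher with the replicate block (0.14, adjusted p = 0.0123), without the libraries numbered 3 (0.22, adjusted p = 0.0392) and without vehicle replicate 3 (0.21, adjusted p = 0.0387).

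**Figure D1:**
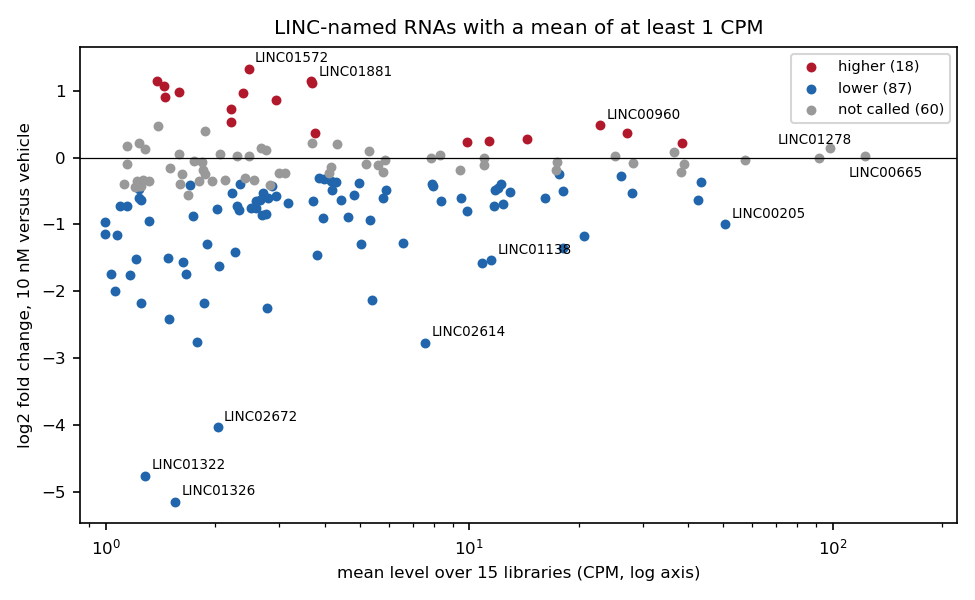
Log2 fold change at 10 nM against vehicle (vertical axis) by mean level over 15 libraries in CPM (horizontal log axis) for the 165 members with a mean of at least 1 CPM; red points were called higher (18), blue points lower (87) and grey points were not called (60). Points called lower lie at all levels, and the deepest falls, LINC01326 and LINC01322, lie at low levels.

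At 10 nM against vehicle 105 of the 165 members were called, 63.6%, beside 57.6% of all genes tested and 64.5% of the 13924 tested genes with a mean of at least 1 CPM. The share called was thus near the background, while its direction was not even. Of the members 18 were higher (10.9%) and 87 lower (52.7%), beside 29.3% and 28.3% of all genes tested. Among the 13924 genes with that minimum mean, 4944 were higher and 4032 lower. They share the minimum with the members and were not matched to them by level. The median log2 fold change was −0.40 over the members and −0.01 over all genes tested. In these bulk libraries, fewer cells that hold an RNA and less of it per cell cannot be told apart. With library totals in place of TMM factors, whose mean was 0.902 ± 0.0166 at 10 nM and 1.04 ± 0.0162 in vehicle, 12 members were higher and 119 lower.

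Falls outnumbered rises at every level of abundance. Of the 36 members at 10 CPM or more, 18 were lower and 5 higher at 10 nM, of the 43 from 3 to 10 CPM 25 were lower and 4 higher, and of the 86 under 3 CPM 44 were lower and 9 higher. Shares of all genes within these levels were not counted. At least 2-fold falls were found for 29 members and at least 2-fold rises for 5, beside 1006 and 779 of the 13924 genes with a mean of at least 1 CPM. The 60 members that were not called ran from −0.56 to 0.47 on the log2 scale. Summed over all 184 members, CPM was 1629 ± 39.0 in vehicle, 1586 ± 8.40 at 0.03 nM and 1483 ± 30.0 at 0.06 nM. It was 1421 ± 31.0 at 0.1 nM and 1351 ± 17.6 at 10 nM (SD, n = 3 each). Every 10 nM library, at 1335 to 1369, lay below every vehicle library, at 1589 to 1667. The sum includes the 19 members that met the rule only through some groups, so the choice of members bears on it.

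The counts at the lower doses were smaller. At 0.03 nM against vehicle 14 members were called, 6 higher and 8 lower, or 8.48% beside 8.63% of all genes tested (5.47% higher and 3.16% lower). Same-numbered libraries of these 2 groups deviate together, and with the number as a block 24 members were called, 12 higher and 12 lower. In turn, 7 were called when the test used the 6 libraries of these groups alone, 4 rather than 8 were lower without the libraries numbered 3, and 9, 7, 7 and 8 were called without vehicle replicate 2, vehicle replicate 4, 0.03 nM replicate 2 or 0.03 nM replicate 3. At 0.06 nM against vehicle 52 were called, 13 higher and 39 lower, or 31.5% beside 31.2% (16.9% higher and 14.3% lower). Without 0.06 nM replicate 2 that count was 34, with 25 lower. At 0.1 nM against vehicle 71 were called, 12 higher and 59 lower, or 43.0% beside 42.1% (21.5% higher and 20.6% lower). Of the 13924 genes with a mean of at least 1 CPM, 10.8%, 38.0% and 49.7% were called at 0.03, 0.06 and 0.1 nM. These shares were above those of the members, to which the genes were not matched by level. The 4 comparisons with vehicle share the vehicle libraries.

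At 10 nM against 0.06 nM, the comparison of high with low dose, 74 members were called, 12 higher and 62 lower. That is 44.8%, beside 45.3% of all genes tested (22.7% higher and 22.6% lower). Of the 13924 genes with a mean of at least 1 CPM, 52.7% were called. The median log2 fold change was −0.25 over the members and −0.03 over all genes. By library totals without TMM factors, which moves the median of all genes by −0.18 here, 4 members were higher and 94 lower. Without 0.06 nM replicate 2, 7 were higher.

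**Figure D2:**
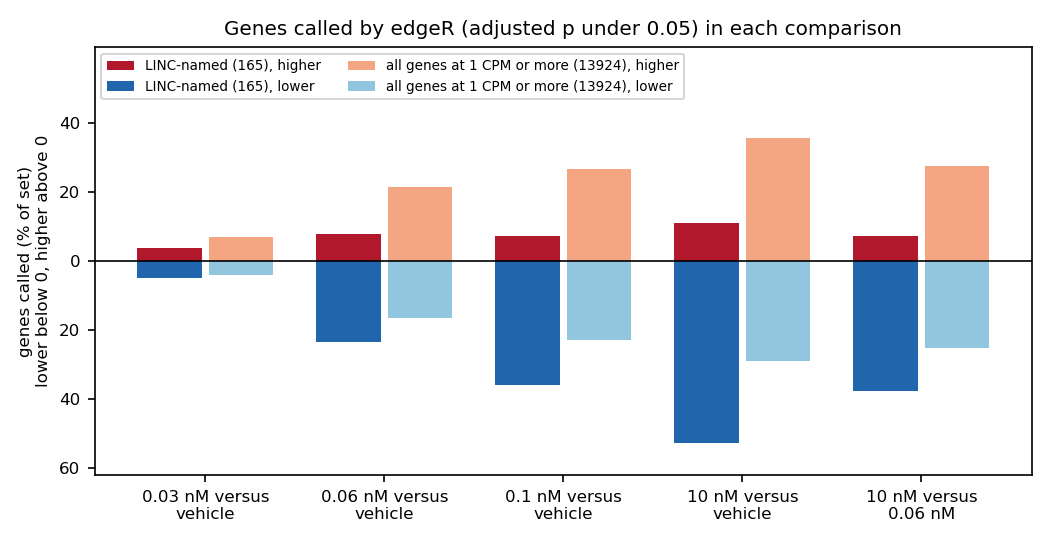
Share of genes called higher (red, above 0) and lower (blue, below 0) in each comparison, in percent of the set; dark bars are the 165 LINC-named members and light bars all 13924 tested genes with a mean of at least 1 CPM. In the comparison of 10 nM with vehicle 10.9% of members were higher and 52.7% lower, against 4944 and 4032 of those 13924 genes.

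Group means followed the order of dose in a part of the set. For 48 of the 165 members (29.1%) the group mean was lower at each of the 4 steps of dose. The share was 15.3% among the 13924 genes with a mean of at least 1 CPM. For 7 members (4.24%) the group mean was higher at each step, beside 15.5% of those genes.

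The deepest falls were in RNAs that nearly left the library at 10 nM. LINC01326 is a 2-exon RNA on the minus strand of chromosome 3 (chr3:166569693-166570763, GRCh38). Its 3 libraries had 3.80, 2.73 and 4.34 CPM in vehicle, 2.52, 1.40 and 2.54 at 0.03 nM, 1.3, 0.76 and 1.4 at 0.06 nM, 0.738, 0.588 and 0.891 at 0.1 nM, and 0.0791, 0.111 and 0.101 at 10 nM. The library numbered 3 was the lowest of its group up to 0.1 nM, and no 10 nM library came near a vehicle library. The log2 fold change was −5.15 ± 0.360 at 10 nM against vehicle (SE, adjusted p = 8.39e-10) and −3.50 ± 0.422 at 10 nM against 0.06 nM (adjusted p = 1.86e-06). It was also the deepest fall at 0.06 nM (−1.65 ± 0.245) and 0.1 nM (−2.31 ± 0.259). At 0.03 nM the value was −0.73 ± 0.222 with an adjusted p of 0.0496, and leaving out any of the 0.03 nM libraries or vehicle replicate 2 or 4 lost the call (adjusted p = 0.0574 to 0.216).

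LINC01322, on the plus strand of the same chromosome (chr3:165206960-165655423), had 0.158, 0.0740 and 0.0505 CPM at 10 nM, against 3.38, 1.53 and 2.79 CPM in vehicle. That all 10 nM libraries lay below all vehicle libraries was a condition for naming it, and the vehicle libraries were themselves spread (2.57 ± 0.943 CPM). The log2 fold change was −4.76 ± 0.533 (adjusted p = 4.53e-07), and −3.40 ± 0.615 at 10 nM against 0.06 nM. LINC02672 (chr10:52973488-52975815, minus strand) had 0.290, 0.259 and 0.151 CPM at 10 nM, against 3.5, 3.6 and 4.6 CPM in vehicle, a log2 fold change of −4.03 ± 0.216 (adjusted p = 2.29e-11). On the log2 scale most of that fall lay between 0.1 nM, at 1.48 ± 0.108 CPM, and 10 nM, at 0.234 ± 0.0728 CPM.

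LINC02614 (chr3:125827238-125916384, minus strand) was among the members that moved early. It had 15.2 ± 1.62 CPM in vehicle, 11 ± 1.75 at 0.03 nM, 5.69 ± 0.322 at 0.06 nM, 3.63 ± 0.533 at 0.1 nM and 2.22 ± 0.271 at 10 nM (SD, n = 3 each). The fall was −1.42 ± 0.127 at 0.06 nM (adjusted p = 2.12e-07) and −2.77 ± 0.139 at 10 nM (adjusted p = 1.03e-11), both against vehicle. Its exons overlap those of other annotated transcripts on both strands, and the strand setting of the counting is not given in the sources used here, so its reads may be shared with them. LINC02984 on chromosome 8 (53515171 to 53523931, minus strand) fell by 0.67 at 0.03 nM, by 1.89 at 0.1 nM and by 2.18 at 10 nM on the log2 scale. It had 0.814 ± 0.0565 CPM at 10 nM, close to 0.979 ± 0.358 at 0.1 nM, and 3.69 ± 0.0404 in vehicle. Its 0.03 nM call was lost without 0.03 nM replicate 3 or 4 or vehicle replicate 2 or 4 (adjusted p = 0.0708, 0.0752, 0.0532 and 0.0606).

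Other large falls at 10 nM against vehicle were those of LINC03000 (−2.76 ± 0.227), LINC02970 (−2.42 ± 0.327), LINC00940 (−2.25 ± 0.169) and LINC01411 (−2.18 ± 0.309). Libraries that did not overlap between the groups were a condition for naming the largest falls and rises. LINC03000 had 0.448, 0.315 and 0.454 CPM at 10 nM, against 2.42, 2.49 and 3.21 in vehicle, and its exons overlap transcripts on the other strand. LINC02970 had 0.501, 0.481 and 0.429 CPM at 10 nM, against 1.88, 3.53 and 2.19 in vehicle. LINC00940 had 0.870, 1.02 and 0.883 CPM at 10 nM, against 3.57, 5.20 and 4.55 in vehicle, so that its lowest vehicle library was still well above its highest 10 nM library. LINC01411 had 0.475, 0.759 and 0.227 CPM at 10 nM, against 2.56, 2.38 and 1.98 in vehicle. LINC00574 and LINC00242 lie on opposite strands of chromosome 6 with exons that overlap, and their values are therefore uncertain as separate genes. LINC00574 had 0.339 ± 0.126 CPM at 10 nM and 1.14 ± 0.404 at 0.06 nM (log2 fold change −1.78 ± 0.284, adjusted p = 4.67e-05). LINC00242 had 0.483 ± 0.0339 CPM at 10 nM and 1.29 ± 0.113 at 0.06 nM (log2 fold change −1.42 ± 0.251, adjusted p = 0.000146).

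Rises were smaller than falls, and the largest of the 165 members at 10 nM was a log2 of 1.33. LINC01572 (chr16:72283301-72665009, minus strand) had 3.64, 2.78 and 3.58 CPM at 10 nM, against 1.45, 1.35 and 1.13 CPM in vehicle. Its means in between were 2.03 ± 0.474 at 0.03 nM, 2.59 ± 0.566 at 0.06 nM and 3.07 ± 0.219 at 0.1 nM, so most of the difference was present by 0.06 nM. The log2 fold change was 0.99 ± 0.198 at 0.06 nM (adjusted p = 0.000891), 1.23 ± 0.194 at 0.1 nM (adjusted p = 5.76e-05) and 1.33 ± 0.192 at 10 nM (adjusted p = 1.01e-05), and 10 nM did not pass the test against 0.06 nM (0.34 ± 0.180, adjusted p = 0.135). LINC02560, a single-exon RNA on chromosome 19 (58400221 to 58400679, plus strand), had another shape. It had 1.40 ± 0.118 CPM in vehicle, 1.42 ± 0.238 at 0.03 nM, 1.24 ± 0.261 at 0.06 nM, 1.12 ± 0.408 at 0.1 nM and 2.76 ± 0.292 at 10 nM. Its 10 nM libraries, at 2.43, 2.91 and 2.95 CPM, lay above all others, with a log2 fold change of 1.16 ± 0.215 against 0.06 nM (adjusted p = 0.000245) and 0.98 ± 0.207 against vehicle (adjusted p = 0.000553).

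LINC02198 had 1.5, 2.3 and 1.9 CPM at 10 nM, against 0.938, 0.600 and 1.06 CPM in vehicle (log2 fold change 1.15 ± 0.272, adjusted p = 0.00143). The library numbered 3 was the highest at 10 nM and the lowest in vehicle, and at 0.1 nM the call was lost without 0.1 nM replicate 3 (log2 fold change 0.70, adjusted p = 0.0630) or without all libraries numbered 3 (0.51, adjusted p = 0.102). LINC02976 had 5.67, 4.52 and 5.40 CPM at 10 nM, against 2.32, 2.38 and 2.31 CPM in vehicle (1.15 ± 0.153, adjusted p = 4.24e-06). LINC01881 on chromosome 2 had 5.20 ± 0.365 CPM at 10 nM and 2.37 ± 0.434 in vehicle (1.12 ± 0.135, adjusted p = 1.14e-06). GENCODE 29 annotates LINC01881 as a transcribed pseudogene, so copies elsewhere could share its reads. LINC02986 on chromosome 8 (1.07 ± 0.289), LINC02012 (0.96 ± 0.182) and LINC00571 (0.90 ± 0.157) completed the 8 largest rises.

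Other comparisons added members to these. At 10 nM against 0.06 nM, LINC01697 rose by 0.70 ± 0.244 (adjusted p = 0.0266) and the abundant LINC00960 by 0.47 ± 0.0645 (adjusted p = 9.13e-06). LINC00960 had 30.4, 28.8 and 30.1 CPM at 10 nM, against 21.6, 21.1 and 21.7 CPM at 0.06 nM, and its other groups lay between 20.4 and 21.5 on average. Its exons overlap ZNF717 on the other strand. The LINC01697 call was lost by library totals and without 0.06 nM replicate 2 (adjusted p = 0.146), 10 nM replicate 3 (0.0914) or 10 nM replicate 4 (0.0655). At 0.06 nM against vehicle, LINC00921 rose by 0.69 ± 0.132 (adjusted p = 0.000569), to 2.54, 2.57 and 2.49 CPM at 0.06 nM, against 1.41, 1.53 and 1.75 CPM in vehicle. LINC00921 shares exon sequence with the coding gene ZNF263 on the same strand, which was at 50.7 ± 1.10 CPM at 10 nM and 49.4 ± 1.19 CPM in vehicle, so its counts are uncertain.

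**Figure D3:**
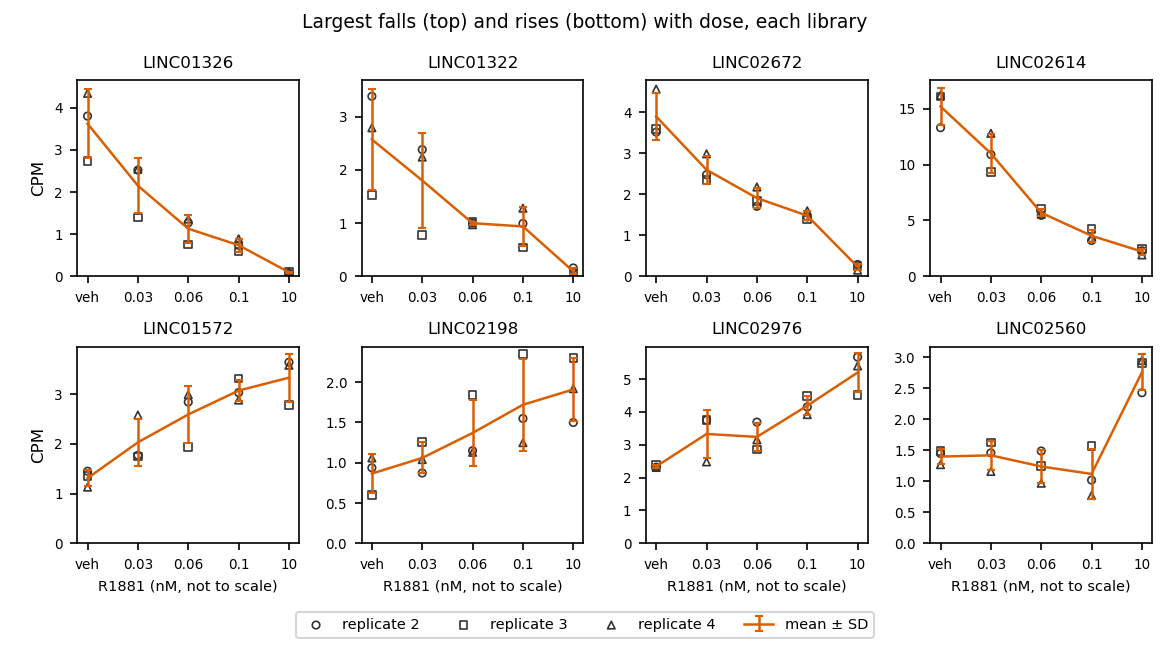
CPM (vertical axis, from 0) at each dose of R1881 in nM (horizontal axis, not to scale, veh = vehicle) for 4 large falls (top row) and 4 large rises (bottom row); open symbols are single libraries by replicate number, and the line is the mean ± SD of 3. LINC01326 reached 0.0970 CPM at 10 nM, and LINC02560 was between 1.12 and 1.42 CPM on average up to 0.1 nM and at 2.76 CPM at 10 nM.

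The RefSeq promoter windows (250 bases before and 50 after the start, GRCh38.p14) show the sequence from which some of the extreme members start. Of the members, 133 had a window. Of the 8 largest rises and 8 largest falls at 10 nM, LINC01572 and LINC02560 are printed for the rises and LINC01322 and LINC03000 for the falls. LINC02198 and LINC02970 are not printed because their RefSeq start lies 238 and 326 bases from the GENCODE 29 start. The 6-base element AGAACA, the core of the element that steroid receptors of this class bind, was searched on both strands (TGTTCT on the other strand) and is printed in capitals.
LINC01572, chr16:72664921-72665220, minus strand: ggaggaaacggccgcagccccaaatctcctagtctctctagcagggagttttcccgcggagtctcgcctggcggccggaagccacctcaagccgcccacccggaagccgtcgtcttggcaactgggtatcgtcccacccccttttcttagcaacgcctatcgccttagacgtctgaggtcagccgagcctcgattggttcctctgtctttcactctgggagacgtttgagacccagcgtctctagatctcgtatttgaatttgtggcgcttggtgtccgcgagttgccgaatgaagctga
LINC02560, chr19:58399953-58400252, plus strand: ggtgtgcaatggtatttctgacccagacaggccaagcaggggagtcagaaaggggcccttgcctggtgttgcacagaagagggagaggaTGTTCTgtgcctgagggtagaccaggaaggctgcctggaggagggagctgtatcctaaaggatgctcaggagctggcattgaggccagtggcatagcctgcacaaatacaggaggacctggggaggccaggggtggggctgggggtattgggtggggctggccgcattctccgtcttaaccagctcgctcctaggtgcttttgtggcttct
LINC01322, chr3:165206698-165206997, plus strand: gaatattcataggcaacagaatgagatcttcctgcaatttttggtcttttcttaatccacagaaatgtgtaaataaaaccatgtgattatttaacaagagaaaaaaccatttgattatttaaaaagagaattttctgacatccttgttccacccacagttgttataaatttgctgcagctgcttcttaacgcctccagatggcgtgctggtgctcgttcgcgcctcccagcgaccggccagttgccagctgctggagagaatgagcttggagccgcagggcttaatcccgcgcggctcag
LINC03000, chr5:164296455-164296754, plus strand: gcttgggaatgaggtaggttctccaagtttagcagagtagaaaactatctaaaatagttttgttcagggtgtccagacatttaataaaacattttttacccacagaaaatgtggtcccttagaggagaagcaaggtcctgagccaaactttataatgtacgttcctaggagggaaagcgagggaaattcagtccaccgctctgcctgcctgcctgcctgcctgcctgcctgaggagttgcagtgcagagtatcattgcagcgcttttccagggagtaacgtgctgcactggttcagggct
LINC02560 holds 1 match, 161 bases before the start, and the windows of LINC01572, LINC01322 and LINC03000 hold these letters nowhere. The LINC01572 window is 58.3% G and C with 24 CpG pairs, against 44.7% and 11 for LINC01322 and 47.7% and 5 for LINC03000, beside medians of 59.3% and 15 over the members with a window. AGAACA occurred on either strand in a window of 29 of the 133 members (21.8%) and in 14.8% of all 35114 windows. The forkhead motif TGTTTAC, bound by FOXA1, occurred for 9 members (6.77%) and in 3.42% of all windows. The full element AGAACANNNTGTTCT, which contains the shorter one, occurred for 0 members and in 1 of all windows. The member shares count genes, which may have more than 1 window each, and the other shares count single windows, so they are unlike measures. A match is only a match of letters in this window.

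A few members rose at low dose and came down at 10 nM. Peaks and troughs were taken from the calls at 0.06 nM against vehicle and at 10 nM against 0.06 nM, which share the 0.06 nM libraries. Of 165 members 4 peaked and 2 had a trough, beside 4.03% and 2.27% of all genes tested. These counts are small, and a difference from all genes was not tested. LINC00869 had 4.04 ± 0.574 CPM in vehicle, 5.67 ± 0.281 at 0.03 nM, 6.26 ± 0.210 at 0.06 nM, 5.02 ± 0.271 at 0.1 nM and 2.16 ± 0.316 at 10 nM (SD, n = 3 each). It was higher at 0.06 nM (0.63 ± 0.117, adjusted p = 0.000457) and lower at 10 nM (−0.89 ± 0.127, adjusted p = 8.97e-06), both against vehicle. LINC01145 had 13.6 ± 0.298 CPM in vehicle, 18.6 ± 0.160 at 0.03 nM, 21 ± 0.187 at 0.06 nM, 20.9 ± 1.03 at 0.1 nM and 13 ± 0.204 at 10 nM. Its 10 nM libraries, at 13.1, 13.2 and 12.8 CPM, lay just below its vehicle libraries, at 13.3, 13.7 and 13.9 CPM, a difference that did not pass the test (adjusted p = 0.357). LINC00869 and LINC01145 are annotated as transcribed pseudogenes in duplicated parts of chromosome 1, and reads may be split between copies.

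LINC01128, near the end of chromosome 1 (825138 to 859446, plus strand), had 30.0 ± 0.966 CPM in vehicle, 40.7 ± 1.12 at 0.03 nM, 44.1 ± 0.754 at 0.06 nM, 43.2 ± 1.05 at 0.1 nM and 34.9 ± 0.335 at 10 nM. Every treated library lay above every vehicle library. The log2 fold change was 0.56 ± 0.0469 at 0.06 nM against vehicle (adjusted p = 1.04e-07) and −0.34 ± 0.0466 at 10 nM against 0.06 nM (adjusted p = 1.10e-05). Its exons overlap LINC00115 on the other strand. LINC02693, which GENCODE 29 annotates as protein coding, had 8.78 ± 1.05 CPM in vehicle, 10.9 ± 0.862 at 0.06 nM and 7.75 ± 1.05 at 10 nM. Its 0.06 nM value against vehicle was close to the threshold (0.30 ± 0.113, adjusted p = 0.0488) and missed it under 7 of the alternatives, among them library totals (adjusted p = 0.0612) and leaving out vehicle replicate 2 or 4 or 0.06 nM replicate 2 or 3 (0.0734, 0.220, 0.154 and 0.128).

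The troughs were shallow. LINC02197 had 38.5 ± 3.55 CPM in vehicle, 32.8 ± 1.83 at 0.06 nM and 40.5 ± 1.48 at 10 nM. LINC01278 had 93.9, 104 and 99.9 CPM in vehicle, 86.3, 91.6 and 80.5 at 0.06 nM, and 101, 103 and 92.6 at 10 nM. The fall of LINC01278 at 0.06 nM (−0.21 ± 0.0678, adjusted p = 0.0276) was lost when 0.06 nM replicate 2 or 4 or vehicle replicate 3 or 4 was left out (adjusted p = 0.0734, 0.144, 0.104 and 0.0688). The LINC02197 fall (−0.23 ± 0.0649, adjusted p = 0.0109) was lost without 0.06 nM replicate 2 or vehicle replicate 3 (adjusted p = 0.0740 and 0.0678). By library totals without TMM factors, neither passed the test at 10 nM against 0.06 nM (0.02 for LINC01278 and 0.13 for LINC02197). That call of LINC01278 was also lost without 0.06 nM replicate 2 or 4 or 10 nM replicate 2 or 3 (adjusted p = 0.0577, 0.126, 0.0841 and 0.101).

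**Figure D4:**
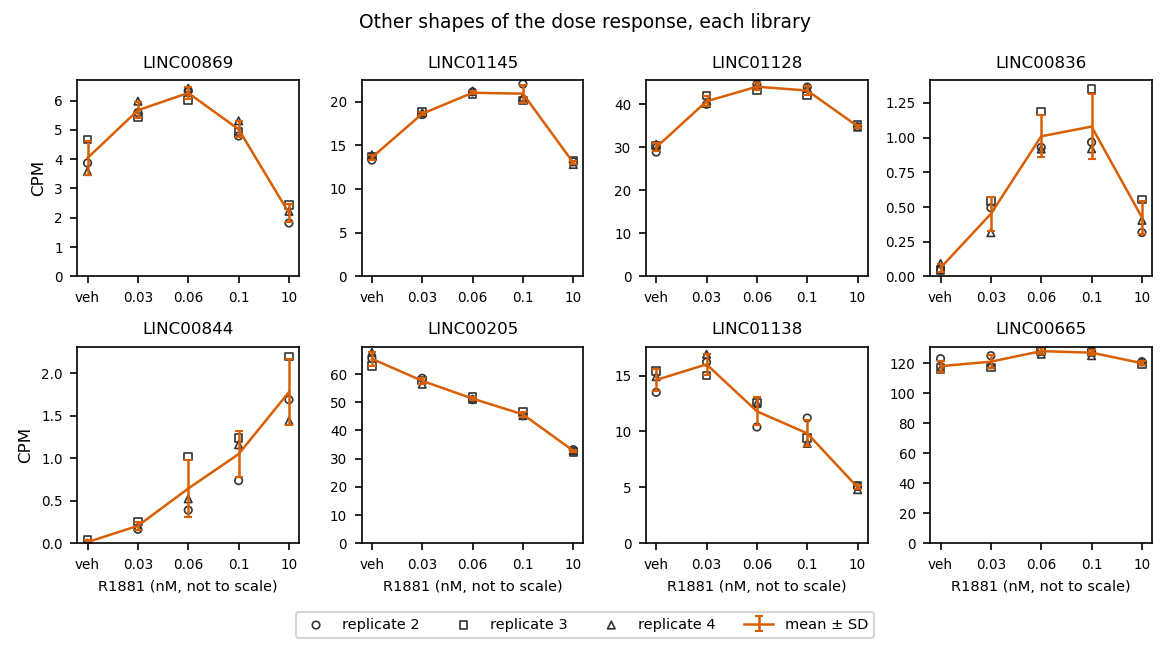
CPM (vertical axis, from 0) at each dose of R1881 in nM (horizontal axis, not to scale, veh = vehicle) for 8 members; open symbols are single libraries by replicate number and the line is the mean ± SD of 3. LINC00869, LINC01145, LINC01128 and LINC00836 were highest at 0.06 or 0.1 nM, LINC00844 was highest and LINC00205 lowest at 10 nM, and LINC00665 stayed between 118 and 128 CPM on average.

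The 19 members with a mean under 1 CPM were chosen by the group in which they were high, so their differences are described and not tested. Of these 19, 15 had their lowest group mean at 10 nM, which the choice itself favours, since many met the rule through vehicle. LINC00844, reported as an androgen-induced RNA in prostate cancer cells, met the rule through 0.1 and 10 nM. It had 0, 0.0444 and 0 CPM in vehicle, 0.165, 0.257 and 0.197 at 0.03 nM, 0.391, 1.02 and 0.524 at 0.06 nM, 0.738, 1.24 and 1.16 at 0.1 nM, and 1.69, 2.20 and 1.44 at 10 nM. That is 240 counts in the 10 nM group and 2 in the vehicle group. The promoter window of LINC00844, printed after its values were seen, holds 1 AGAACA, 59 bases before the RefSeq start, in capitals. That start lies 108 bases from the GENCODE 29 start.
LINC00844, chr10:58999268-58999567, plus strand: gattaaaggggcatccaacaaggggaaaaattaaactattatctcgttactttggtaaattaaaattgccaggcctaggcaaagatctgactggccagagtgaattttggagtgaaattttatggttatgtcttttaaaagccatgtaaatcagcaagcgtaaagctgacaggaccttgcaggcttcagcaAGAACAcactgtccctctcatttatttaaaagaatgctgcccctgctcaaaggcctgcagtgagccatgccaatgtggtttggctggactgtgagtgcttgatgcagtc
LINC00836, also on chromosome 10, had 0.0612 ± 0.0270 CPM in vehicle, 0.451 ± 0.121 at 0.03 nM, 1.01 ± 0.151 at 0.06 nM, 1.08 ± 0.236 at 0.1 nM and 0.425 ± 0.121 at 10 nM. All its treated libraries lay above its vehicle libraries, and its 10 nM libraries lay below those of 0.06 and 0.1 nM.

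Of the low members that were lowest at 10 nM, LINC02600 had 0.0527, 0.296 and 0.126 CPM at 10 nM, against 1.29, 1.44 and 1.13 CPM in vehicle. LINC00886 had 0.145 ± 0.0527 CPM at 10 nM and 1.09 ± 0.0377 in vehicle. LINC00511, reported as a growth-promoting RNA in several cancers, had 0.316, 0.296 and 0.227 CPM at 10 nM, against 1.17, 1.22 and 1.2 CPM in vehicle. LINC00578 had 0.291 ± 0.156 CPM at 10 nM and 1.09 ± 0.162 in vehicle, LINC02724 had 0.361 ± 0.0978 at 10 nM and 1.19 ± 0.286 in vehicle, and LINC02861 had 0.397 ± 0.0511 at 10 nM and 1.07 ± 0.115 in vehicle. In each of these 6 RNAs every 10 nM library lay below every vehicle library. All 6 met the rule through vehicle, alone or with 0.03 nM, and were named for their ratio of group means. That separation was therefore favoured by the choice and is not a result.

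Several LINC symbols known from cancer work were looked up by name. LINC01138, reported to bind the arginine methyltransferase PRMT5, had 5.09, 5.15 and 4.80 CPM at 10 nM, against 13.5, 15.4 and 14.9 CPM in vehicle. The fall began above 0.03 nM, where it had 16.0 ± 0.946 CPM, and reached a log2 of −1.54 ± 0.101 at 10 nM (adjusted p = 3.82e-10). It lies in a duplicated part of chromosome 1 and overlaps several small RNA genes, so its counts are uncertain. LINC01315 fell by 0.65 at 10 nM on the log2 scale (adjusted p = 0.000277), to 2.52 ± 0.132 CPM at 10 nM, against 3.96 ± 0.253 CPM in vehicle. LINC00467 had 22.7 ± 1.2 CPM at 10 nM and 27.6 ± 0.0917 in vehicle (−0.28 ± 0.0672, adjusted p = 0.00143). LINC00342 fell by 0.63 (adjusted p = 0.0222), a call that was lost without 10 nM replicate 2 or 4 or vehicle replicate 3 (adjusted p = 0.0789, 0.0762 and 0.0987).
LINC00662 (−0.22 ± 0.0949, adjusted p = 0.0610) and LINC00847 (0.02 ± 0.0544, adjusted p = 0.830) did not pass the test at 10 nM against vehicle. LINC00662 was called lower under 7 of the 14 alternatives, namely the replicate block (adjusted p = 0.00053), no count filter (0.0141), the stricter filter (0.0275), library totals (0.000336) and leaving out the libraries numbered 3 (0.0110), vehicle replicate 2 (0.0175) or 10 nM replicate 3 (0.00910). LINC00847 flipped to −0.19 by library totals without TMM factors. LINC00920, reported as a target of the ETS factor ERG, was among the low members, with 0.870, 1.46 and 1.09 CPM at 10 nM, against 0.258, 0.999 and 0.646 CPM in vehicle, and these libraries overlapped. LINC01126, LINC00304, LINC00261, LINC01088, LINC02532 and LINC01116 were under the threshold of the rule, with highest group means of 0.00906 to 0.460 CPM.

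Where the members lie was compared with what their neighbours did. Of the 184, GENCODE 29 annotates 143 as lincRNA, 13 as antisense and 8 as pseudogenes. The median exonic length was 2457 bases, 28 were single-exon, and 26 had their start within 5 kb of a coding gene's start. For 24 an exon overlapped another gene on the member's own strand and for 50 on the opposite strand. The 104 members with a mean of at least 1 CPM that share no exon sequence with another gene held 61 falls and 10 rises at 10 nM, and the 61 that do held 26 falls and 8 rises. At 0.03 nM all 6 rises were among members that share exon sequence, but leaving out 1 library gave 3 to 5 rises there. The same split was not made for all genes tested, and a difference between these sets was not tested.

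Some of the largest changes had a neighbour that changed with them. LINC01322 starts 9851 bases from SLITRK3, a synaptic adhesion protein gene on the opposite strand, which had 8.05 ± 0.924 CPM at 10 nM and 73.6 ± 7.74 CPM in vehicle (log2 fold change −3.20 ± 0.167, adjusted p = 1.67e-11). LINC01326 starts 733291 bases from BCHE, the butyrylcholinesterase gene, which had 20.1 ± 2.35 CPM at 10 nM and 126 ± 20.2 CPM in vehicle (−2.65 ± 0.150, adjusted p = 5.06e-11). LINC02984 lies 272234 bases from OPRK1, which encodes the kappa opioid receptor and had 2.25 ± 0.731 CPM at 10 nM and 99.3 ± 8.65 CPM in vehicle (−5.43 ± 0.154, adjusted p = 5.28e-15). Of the rises, LINC02976 starts 11172 bases from CNPY3, a chaperone of Toll-like receptors, which was higher at 10 nM by 1.06 ± 0.0501 (adjusted p = 4.18e-12). LINC02986 starts 55681 bases from ZBTB10, a zinc finger repressor gene, which was higher by 2.10 ± 0.0736 (adjusted p = 7.37e-14). LINC00571 and LINC02012 had UFM1 (0.69 ± 0.0677), a ubiquitin-like modifier gene, and BDH1 (0.46 ± 0.0706), a ketone body enzyme gene, as their nearest coding starts. LINC02198 had SLC30A5 (0.34 ± 0.0503), a zinc transporter gene.

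Other neighbours, taken by the nearest coding start, did not move with the RNA. POFUT2, a fucosyltransferase gene whose start is 152 bases from that of LINC00205 on the opposite strand, differed by 0.12 ± 0.0557 at 10 nM against vehicle (adjusted p = 0.0818). SLCO4A1 near LINC02970 differed by −0.01 ± 0.0788 (adjusted p = 0.886), and ZNF584, 1283 bases from LINC02560, by 0.13 ± 0.0616 (adjusted p = 0.0766). MAT2B, the nearest coding start of LINC03000 at 793582 bases, was higher by 0.36 ± 0.0511 (adjusted p = 9.22e-06) while LINC03000 fell. For LINC01572 the nearest coding start, that of PMFBP1, lies 488131 bases away. PMFBP1 was at 0.129 ± 0.0230 CPM at 10 nM and 0.153 ± 0.0882 CPM in vehicle. Over the set, 66 of the 87 members that fell at 10 nM had a tested neighbour, of which 24 fell, 18 rose and 24 were not called. Of the 18 that rose, 13 had one, of which 8 rose, 1 fell and 4 were not called. A coding gene nearest to more than 1 member, such as FAM20C or IER5L, is counted once for each. Among all genes tested, each counted once, 29.3% rose and 28.3% fell at 10 nM.

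**Figure D5:**
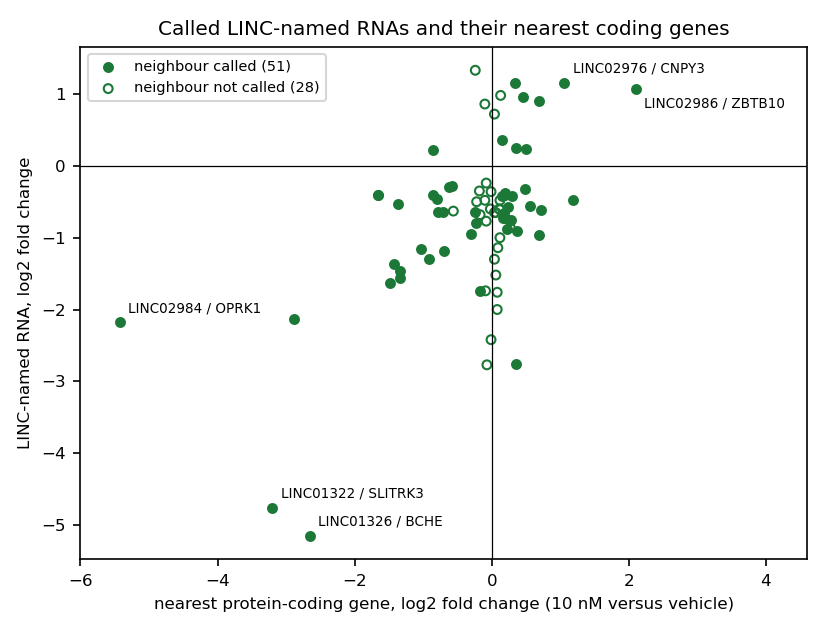
Log2 fold change at 10 nM against vehicle of each called member (vertical axis) by that of its nearest protein-coding gene (horizontal axis), for the 79 called members with a tested neighbour; filled points have a neighbour that was called (51), open points one that was not (28). LINC01322 with SLITRK3, LINC01326 with BCHE and LINC02984 with OPRK1 stand at the lower left.

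Long noncoding RNAs with other names were set beside the LINC-named ones. Of 31 listed, 28 were tested, and at 10 nM against vehicle 9 were higher, 6 lower and 13 not called, with a median log2 fold change of 0.04. The examples that follow were chosen after their values were seen. SOCS2-AS1, an androgen-induced antisense RNA, had 7.64 ± 0.143 CPM at 10 nM and 0.855 ± 0.0121 CPM in vehicle (3.16 ± 0.172, adjusted p = 2.98e-11). PCA3, a prostate cancer marker in urine, had 3.05 ± 0.699 CPM at 10 nM and 0.555 ± 0.0961 in vehicle (2.45 ± 0.245, adjusted p = 1.16e-07). DRAIC, reported as repressed by androgen, had 6.44 ± 0.567 CPM at 10 nM and 23.1 ± 1.46 in vehicle (−1.85 ± 0.111, adjusted p = 1.19e-10). The most abundant, MALAT1, did not pass the test (−0.12 ± 0.198, adjusted p = 0.635). The difference between this list and the members was not tested.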

How the data were processed

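Strand-specific libraries for polyadenylated RNA were made with the KAPA Stranded mRNA-Seq kit, per the labels' protocols. Per the submitters' processing notes, Trimmomatic 0.39, STAR 2.7.8a and DESeq2 1.36.0 were used on GRCh38; the read counter, its strand setting and the annotation release are not given in the sources used here. The deposited table holds raw read counts per Ensembl gene for 15 LNCaP libraries, 37843 genes, of which 37732 IDs matched a symbol table. Another 15 columns, from VCaP cells, match no label and were not used.

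Groups come from the labels. Members, lists and comparisons were chosen with earlier results of these data known. Members were found by symbol and CPM over column totals; printed CPM are counts over TMM library sizes. The test was that of edgeR 4.0.16, run in R 4.3.3 (TMM, filterByExpr by group, quasi-likelihood fit of all 15 libraries, 1 mean per group, two-sided, Benjamini-Hochberg over 18403 genes, threshold 0.05). Named members were the 8 most abundant; the 8 largest rises and falls at 10 nM against vehicle, 5 in both 0.06 nM comparisons and 3 in the others, called and with libraries that do not overlap; up to 5 peaks and troughs; 8 low members by their ratio of group means; and symbols listed by name. LINC00242 was named beside LINC00574, and LINC00115 as an overlapping gene, after values were seen. Positions are those of GENCODE 29 on GRCh38, promoters those of RefSeq. Some marker and check genes are not reported here.

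Same-numbered libraries deviated together at 0.03 nM and vehicle (correlations of 0.155, 0.296 and 0.164) and at 0.1 nM and vehicle (0.179, 0.287 and 0.151); the labels give the numbers and no shared batch. On simulated data with 18403 genes, 67, 67 and 66 were given log2 changes of 0.5, 1 and 2. For 10 nM against vehicle 53.7%, 77.3% and 96.9% of these were called, with 8 false of 157 calls. Far more genes differed in the real comparison (57.6% of those tested were called), so these rates need not hold there. The alternatives were DESeq2 1.42.0, RLE size factors, library totals, other count filters (at least 1 CPM in 3 libraries with a mean count of 20, or no filter), a replicate block, the compared libraries alone, and leaving out libraries.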

Additional observations from a re-analysis of the deposited data

How the results depend on the processing

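The 0.03 nM comparison depended most on the processing. Against 14 members called (6 higher, 8 lower), the replicate block gave 24 (12 higher), the 6 libraries alone gave 7 (3 higher, 4 lower), and without the libraries numbered 3 the lower count was 4. Leaving out 1 library gave 7 to 11 called, 3 to 5 higher and 2 to 7 lower. At 0.06 nM against vehicle, leaving out 1 library gave 34 to 47 called, 9 to 11 higher and 25 to 38 lower. At 10 nM against 0.06 nM, library totals gave 4 higher and 94 lower, and leaving out 1 library gave 7 to 13 higher. Every other count of calls over the members stayed within 1.5 times its value, as did the number of members (133 at a threshold of 2 CPM, 243 at 0.5 CPM). The block moved no other count by more than 1.5 times; same-numbered libraries fell below a correlation of 0.1 in 1 pair each at 0.06 nM and 10 nM against vehicle and at 10 nM against 0.06 nM (0.0990, 0.0660 and 0.0950), and 15 of 15 libraries correlated best with their own number. 

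Of 1022 alternative values for 73 pairs of a named member and a comparison, 929 kept direction and call, 68 lost the call, 14 gained one and 11 changed sign. All sign changes were at 10 nM against vehicle in members near 0: LINC00665 (−0.19 by totals, −0.02 with the stricter filter), LINC00963 (−0.07 by totals), LINC01278 (0.01 with RLE factors, 0.01 with DESeq2, and −0.05 to 0.03 when 1 library was left out, with 0.02 without vehicle replicate 3) and LINC00847 (−0.19 by totals, −0.03 with the stricter filter, −0.00 with the 6 libraries alone, −0.00 without 10 nM replicate 3). The cause was not tested. Of 66 called pairs, 51 held under every alternative: 22 of 23 at 10 nM against vehicle (not LINC00342), 13 of 16 at 10 nM against 0.06 nM, 5 of 6 at 0.1 nM, 11 of 15 at 0.06 nM and 0 of 6 at 0.03 nM. Depth limits the low members, several of which rest on under 50 counts per group.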
